A study of Rattus norvegicus with 17 samples.

Results

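The interaction of α-synuclein A53T with 2.0 µM FK506 is, for each gene, the FK506-minus-DMSO difference in cultures carrying A53T minus the same difference in cultures carrying the empty vector, on log2(value + 1). It asks whether A53T alters how the cultures answer the drug, and every one of the 11247 genes in the table was a member. The comparison used 11 of the 17 libraries, in 4 of the 6 groups. The cultures were primary cells of rat cerebral cortex, labelled as glutamatergic neurons with astrocytes, and all had been infected with a construct. The groups were A53T with 2.0 µM FK506 (3 libraries), A53T with the solvent DMSO (2 libraries), empty vector with 2.0 µM FK506 (3 libraries) and empty vector with DMSO (3 libraries). The series calls the 2.0 µM dose saturating. The promoter of the construct, the length of treatment, the age of the animals and the number of cultures behind a group were not given by the sources at hand. The p-values therefore measure only the spread between these libraries, which may be technical. Below, "with FK506" means 2.0 µM.

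FK506 (tacrolimus) binds the immunophilin FKBP12, and the complex blocks calcineurin, a phosphatase that calcium and calmodulin switch on. Calcineurin acts on NFAT transcription factors, which enter the nucleus once dephosphorylated, and on many synaptic proteins, and in astrocytes it is known as a driver of inflammatory and reactive gene expression. α-Synuclein is a presynaptic protein whose A53T variant causes familial Parkinson's disease, and in model systems it disturbs calcium handling and calcineurin activity.

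The values were gene counts that the authors had normalized, with totals of 15848673 to 18335540 per library in these 4 groups. The raw depth behind them is unknown, so counting errors could be estimated only as if the normalized values were raw counts. Of the microglial markers, 13 of 15 were not among the labels in the table, and of the endothelial and pericyte markers 9 of 11. The microglial marker Cd68, a lysosomal membrane protein, had a lower response in A53T at -0.72, a call kept in 1 of the 11 fits that left out 1 library and lost with quantile normalization, and the summed endothelial and pericyte markers were low in every library, from 13.1 to 31.9 normalized counts. Libraries also varied within groups along an axis that held 54.3% of the within-group variance. Replicate 1 of A53T with FK506 stood apart on it, at -0.542 against -0.133 and 0.0251 for the other two libraries of its group, and so did replicate 2 of vector with FK506, at -0.198 against 0.0923 and 0.140. The group means on this axis gave an interaction of -0.38, so the axis moved with the comparison, and its part in the results was not tested. Counts of called list members are also given without the libraries that stood apart, with the axis score as a covariate or with quantile normalization. They are given for each list where one moved by over 1.5 times and by 2 or more genes. The axis came from the deviations of these same libraries, and the libraries left out were chosen for standing apart. Both settings therefore lower the spread within groups by construction, and more calls under them add no evidence.

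The response to FK506 differed between A53T and vector cultures for 1641 genes, 14.6% of those tested (limma, adjusted p under 0.05). The response was higher in A53T for 916 genes (8.14%) and lower for 725 genes (6.45%). These shares are the background for every count of called list members below. FK506 changed 4233 genes (37.6%) in A53T cultures and 5307 genes (47.2%) in vector cultures, and the median interaction over all genes was near 0, at -0.0002. A53T had 2 libraries with DMSO and vector 3, so the same response was harder to call in A53T cultures. The counts of the arms therefore do not compare the strength of the responses. Over all genes the SD of the responses (log2) was 0.58 in A53T and 0.61 in vector cultures. Of the 2652 genes called in both arms, 2533 had the same direction and 119 the opposite one. Across the 11247 genes the responses of the arms had a Pearson r of 0.48 and a Spearman rho of 0.49; genes of a library are not independent, so this is a description. The number of interaction calls depended on single libraries. It was 632 without the unnumbered A53T library with DMSO, 649 without replicate 1 of that group, 932 and 980 without replicates 1 and 3 of vector with FK506, 972 and 1046 without replicates 2 and 3 of vector with DMSO, and 2615 without replicate 3 of A53T with FK506. Without the 3 libraries that stood apart, 1 of which belongs to vector with 0.2 µM, it was 4254, and 1623 of the 1641 calls were among them. These 3 were chosen for their distance from their groups, so a rise in calls without them is built in. Replicate 3 of A53T with FK506 was kept, although it deviated from its group mean on the axis by 0.242. The deviation was -0.210 for replicate 2 of vector with FK506, which was left out. Of the 102 called genes that the naming rule chose, 66 kept their call in all 11 fits that left out 1 library, and all of the other 36 lost it without at least 1 of the A53T libraries with DMSO.

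**Figure D1:**
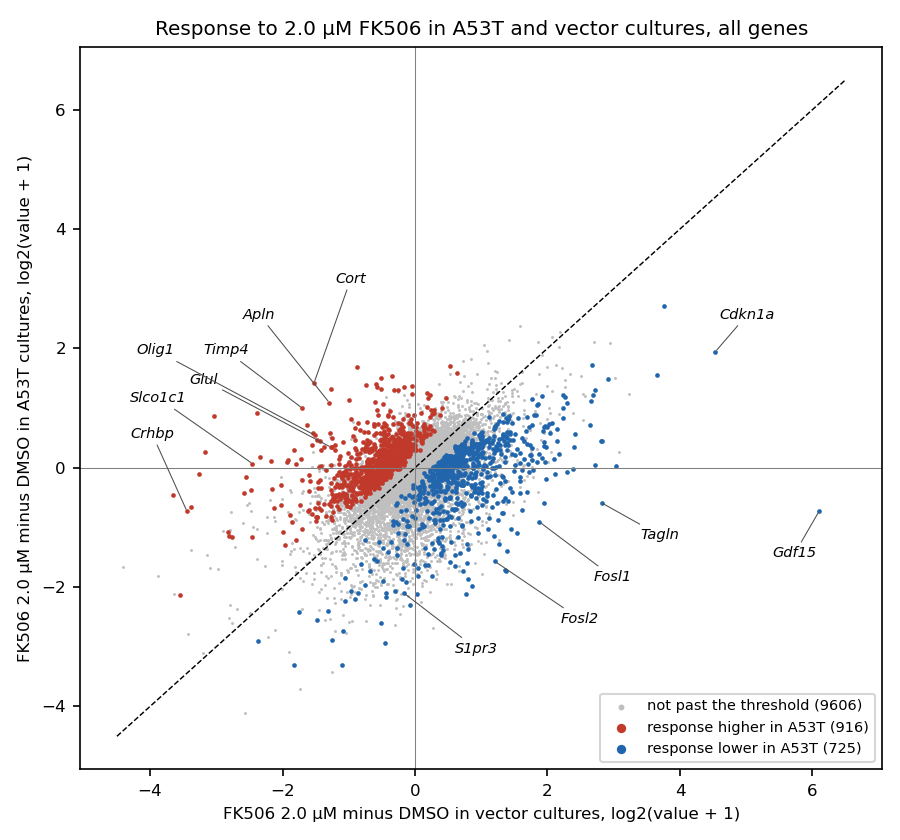
Each point is 1 of 11247 genes. The vertical axis is the response to FK506 in A53T cultures and the horizontal axis the response in vector cultures, both as FK506 minus DMSO on log2(value + 1). The dashed line marks equal responses. Red points (916) lie above it and blue points (725) below it by the interaction test, and Gdf15 is the farthest point, at -0.73 in A53T and 6.10 in vector cultures.

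Most of these genes moved in the vector arm and moved less, or not past the threshold, in the A53T arm. Among the 916 genes with a higher response in A53T, 745 (81.3%) fell in vector cultures, and 516 of these did not pass in A53T cultures, 150 fell there too and 79 rose there. Another 145 rose in A53T cultures with no call in vector cultures. Among the 725 genes with a lower response in A53T, 570 (78.6%) rose in vector cultures, and 358 of these did not pass in A53T cultures, 172 rose there too and 40 fell there. Another 110 fell in A53T cultures with no call in vector cultures. Of all genes, 23.8% fell and 23.4% rose in vector cultures, and 17.9% fell and 19.7% rose in A53T cultures. The same response was harder to call in A53T cultures, so a class without a call there can still hold a response. These classes share their libraries with the interaction test and describe its calls.

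The interaction can also be read as A53T against vector, once with FK506 and once with DMSO. With FK506 the genotypes differed in 19.6% of all genes, higher in A53T in 9.88% and lower in 9.7%, and with DMSO in 14% of all genes, higher in 5.85% and lower in 8.19%. Of the 916 genes with a higher response, A53T was above vector with FK506 in 421 and below vector with DMSO in 433, and 79 genes did both. Of the 725 genes with a lower response, A53T was below vector with FK506 in 418 and above vector with DMSO in 298, and 102 did both. So for 332 of the 916 and 190 of the 725, the called difference between genotypes was only the one in DMSO. For 338 of the 916 and 311 of the 725 it was only the one with FK506. For that reason both readings are given for several of the genes described next.

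The lowest interaction belonged to Gdf15, a stress-induced cytokine of the TGF-β family and a target of p53. It had 244, 189 and 275 normalized counts in A53T cultures with FK506 and 380.2 and 394 in A53T cultures with DMSO, against 3927, 4761 and 3743 in vector cultures with FK506 and 47.6, 57.1 and 75.6 in vector cultures with DMSO. Vector cultures with FK506 lay far above all other libraries, and A53T cultures with FK506 lay below A53T cultures with DMSO, with no overlap in either arm. On log2 means, in vector cultures the level with FK506 was 68.7-fold that with DMSO; in A53T cultures it was 0.604-fold. The interaction was -6.83 ± 0.26 (SE, adjusted p = 3.01e-08).

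Cdkn1a encodes p21, the cyclin-dependent kinase inhibitor that p53 induces. Its libraries held 3757, 2826 and 3806 normalized counts in A53T cultures with FK506 and 858 and 926 in A53T cultures with DMSO, against 9105, 11118 and 8096 in vector cultures with FK506 and 420.4, 374 and 416 in vector cultures with DMSO. It rose in both arms, by 1.94 (log2) in A53T and 4.53 in vector cultures, and the rise was smaller in A53T, with an interaction of -2.59 ± 0.19 (SE, adjusted p = 8.3e-06). In DMSO the order was the other way round, with A53T above vector by 1.14. Tagln, which encodes the actin-binding protein transgelin, had 1258, 817 and 1177 normalized counts in A53T cultures with FK506 and 1649.6 and 1559 in A53T cultures with DMSO, against 5817, 6809 and 5411 in vector cultures with FK506 and 827, 769.6 and 958 in vector cultures with DMSO. It fell in A53T cultures and rose in vector cultures, and its interaction was -3.41 ± 0.25 (SE, adjusted p = 8.3e-06). A53T minus vector was -2.49 with FK506 and 0.92 with DMSO.

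Both Fra proteins, the AP-1 subunits encoded by Fosl1 and Fosl2, took opposite directions in the arms. Fosl2 had 25.9, 22.01 and 23.4 normalized counts in A53T cultures with FK506 and 74.6 and 70.2 in A53T cultures with DMSO, against 147, 143 and 167 in vector cultures with FK506 and 75.02, 59.1 and 62.7 in vector cultures with DMSO. In DMSO the genotypes overlapped, and with FK506 all 3 A53T libraries were lowest and all 3 vector libraries highest. The interaction of Fosl2 was -2.78 ± 0.26 (SE, adjusted p = 8.06e-05). Fosl1 had 116, 116 and 126 normalized counts in A53T cultures with FK506 and 208 and 241 in A53T cultures with DMSO, against 496, 475 and 523 in vector cultures with FK506 and 128, 139.7 and 138 in vector cultures with DMSO, and its interaction was -2.78 ± 0.19 (SE, adjusted p = 3.61e-06), again with a fall in A53T and a rise in vector cultures. Klf13, a Krüppel-like transcription factor, fell by 1.86 in A53T and rose by 0.80 in vector cultures.

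The other genes among the 10 lowest rose in vector cultures without a call in A53T cultures, with 1 exception. Zbtb20, a zinc-finger repressor, had 14.4, 18.01 and 18.1 normalized counts in A53T cultures with FK506 and 18.1 and 14.99 with DMSO, against 84.8, 71.1 and 107 in vector cultures with FK506 and 13.4, 6.15 and 10.7 with DMSO. Its A53T groups overlapped and its vector groups did not. Tgfbr2, the type II TGF-β receptor, had a response of 0.04 in A53T and 2.72 in vector cultures, and Exnef of -0.59 and 1.95. The exception was Ncoa2, a nuclear receptor coactivator, which fell by 2.11 in A53T cultures with no call in vector cultures. Its interaction of -2.88 was past the threshold in 3 of the 11 fits that left out 1 library, and its A53T libraries with FK506 were spread widely, at 5.49, 18.01 and 38.2.

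Some of the highest interactions lay in the FK506 groups, others in the DMSO groups or in both. Timp4, an inhibitor of matrix metalloproteinases, had 427, 421 and 364 normalized counts in A53T cultures with FK506 and 217 and 187 in A53T cultures with DMSO, against 65.3, 94.8 and 79.96 in vector cultures with FK506 and 244, 259 and 276 in vector cultures with DMSO. It rose in A53T and fell in vector cultures, with no overlap in either arm, and its interaction was 2.69 ± 0.20 (SE, adjusted p = 8.3e-06). Apln, which encodes the peptide apelin, had 252, 261 and 271 normalized counts in A53T cultures with FK506 and 123 and 121 in A53T cultures with DMSO, against 63.4, 74.6 and 77.9 in vector cultures with FK506 and 178, 191 and 165 in vector cultures with DMSO. It too rose in A53T and fell in vector cultures, with an interaction of 2.39 ± 0.17 (SE, adjusted p = 6.72e-06). Slco1c1, a thyroid hormone transporter, had a response of 0.07 (not past the threshold) in A53T cultures and fell by 2.45 in vector cultures. Btbd17, a BTB-domain protein, rose by 0.72 in A53T and fell by 1.62 in vector cultures. In both of these genes A53T was above vector with FK506 and below it with DMSO, both past the threshold.

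Crhbp and Cort differed between genotypes in the DMSO groups. Crhbp, which encodes the binding protein of corticotropin-releasing hormone, had 48.8, 45.02 and 41.4 normalized counts in A53T cultures with FK506 and 88.2 and 63.9 in A53T cultures with DMSO, against 30.2, 45.3 and 38.5 in vector cultures with FK506 and 409.6, 412 and 432 in vector cultures with DMSO. Vector cultures with DMSO were apart from all others; A53T minus vector was 0.26 with FK506 (log2, adjusted p = 0.319) and -2.46 with DMSO (adjusted p = 2.63e-05). The interaction was 2.72 ± 0.27 (SE, adjusted p = 0.000108). Cort, the interneuron peptide cortistatin, had 25.4, 26.01 and 11.7 normalized counts in A53T cultures with FK506 and 5.34 and 8.58 in A53T cultures with DMSO, against 19.5, 22.5 and 16.2 in vector cultures with FK506 and 51.5, 61.1 and 59.6 in vector cultures with DMSO. A53T minus vector was 0.04 with FK506 (adjusted p = 0.939) and -2.90 with DMSO (adjusted p = 0.000419), and its interaction was 2.94 ± 0.49 (SE, adjusted p = 0.00276). Trim54, Fam20a and Agt (angiotensinogen) had genotype differences of 0.21, 0.07 and 0.53 with FK506, none of them past the threshold, and of -2.51, -2.05 and -1.99 with DMSO, all of them past it. The interaction of Agt was past the threshold in 5 of the 11 fits that left out 1 library, and that of Trim54 in 9. Trim54 lost its call without either A53T library with DMSO. Agt lost it without replicate 1 of A53T with DMSO, without any of the vector libraries with DMSO and without replicate 1 or 3 of vector with FK506.

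**Figure D2:**
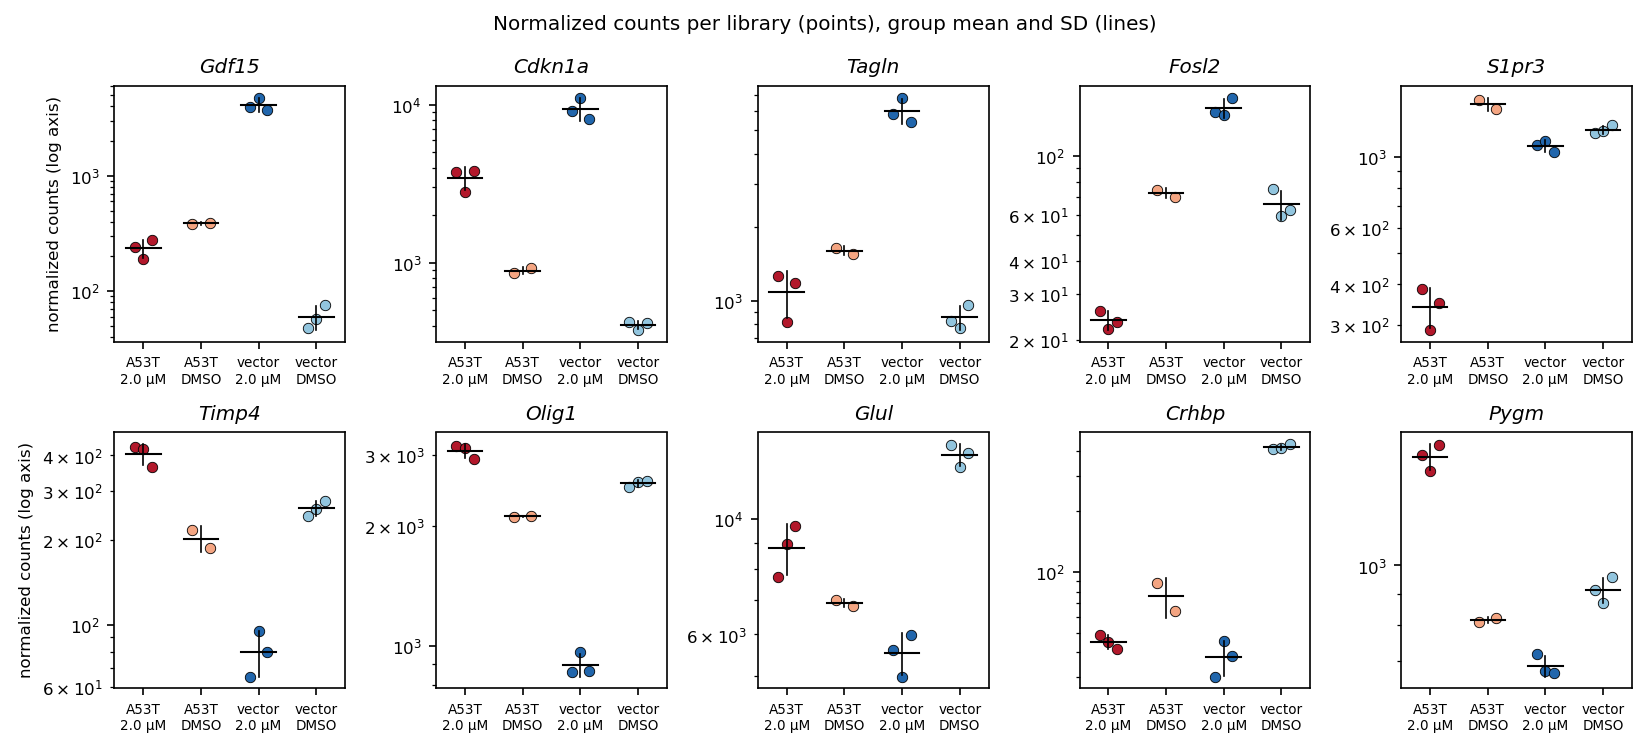
Normalized counts per library on a log axis for 10 genes, with A53T groups left of vector groups and FK506 left of DMSO. Points are libraries (3, 2, 3 and 3), the horizontal line is the group mean and the vertical line 1 SD. Gdf15 in vector cultures with FK506 (3743 to 4761) is far above its other groups, and Crhbp in vector cultures with DMSO (409.6 to 432) far above its others.

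The promoters of 4 of these genes are shown because Gdf15 had the lowest interaction, Fosl1 took opposite directions in the arms, and Timp4 and Crhbp were among the 10 highest, with a genotype difference past the threshold with FK506 in Timp4 and with DMSO in Crhbp. They are RefSeq windows of build GRCr8 from 250 bases before to 50 bases after the start, written 5′ to 3′ on the gene's strand. Capitals mark GGAAA, the core that NFAT factors bind, on either strand. Gdf15 is at chr16:18838186-18838485 on the plus strand, Fosl1 at chr1:212183635-212183934 on the plus strand, Timp4 at chr4:149985155-149985454 on the minus strand and Crhbp at chr2:28439397-28439696 on the minus strand.
Gdf15: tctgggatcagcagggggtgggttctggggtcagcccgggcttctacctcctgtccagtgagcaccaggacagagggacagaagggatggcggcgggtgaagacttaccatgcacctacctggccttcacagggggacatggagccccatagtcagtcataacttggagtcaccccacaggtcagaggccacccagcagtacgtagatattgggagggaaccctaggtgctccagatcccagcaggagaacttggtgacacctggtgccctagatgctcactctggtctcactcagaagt
Fosl1: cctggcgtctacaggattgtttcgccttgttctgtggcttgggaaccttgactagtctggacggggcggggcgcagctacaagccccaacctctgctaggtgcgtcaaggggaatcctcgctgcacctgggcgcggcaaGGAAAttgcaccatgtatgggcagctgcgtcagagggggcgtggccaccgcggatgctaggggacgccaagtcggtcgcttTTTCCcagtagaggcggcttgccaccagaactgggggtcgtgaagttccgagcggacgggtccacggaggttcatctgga
Timp4: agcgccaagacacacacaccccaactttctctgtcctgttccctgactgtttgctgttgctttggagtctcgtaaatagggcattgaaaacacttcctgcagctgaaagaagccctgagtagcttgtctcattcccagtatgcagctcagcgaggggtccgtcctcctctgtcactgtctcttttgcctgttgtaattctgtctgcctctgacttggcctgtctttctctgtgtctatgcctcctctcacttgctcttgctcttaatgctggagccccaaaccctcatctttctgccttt
Crhbp: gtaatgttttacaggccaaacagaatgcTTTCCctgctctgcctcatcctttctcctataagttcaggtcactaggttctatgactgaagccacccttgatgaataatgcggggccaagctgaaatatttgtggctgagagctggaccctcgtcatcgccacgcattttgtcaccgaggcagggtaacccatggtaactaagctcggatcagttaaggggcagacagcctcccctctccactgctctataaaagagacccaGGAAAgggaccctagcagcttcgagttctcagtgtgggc

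Fosl1 and Crhbp each held 2 GGAAA matches in these windows, and Gdf15 and Timp4 held 0. GGAAA occurred in 57.5% of 9092 promoters of measured genes, in 4 of the 6 windows found for the 10 lowest interactions and in 3 of the 7 found for the 10 highest. None of the windows of either end held the AP-1 site TGANTCA or the cyclic AMP response element TGACGTCA, which 4.65% and 3.37% of all windows held. Crhbp held 1 TATAAA, which 6.43% of all windows held. A match is only a run of letters, and no match covers only this window.

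Called genes of the p53 and apoptosis list had lower responses in A53T. Of its 20 measured genes, 9 had a lower response in A53T (6.45% of all genes did), 0 a higher one and 11 did not pass, with a median interaction of -0.48; 5 of the 9 kept their call in all 11 fits that left out 1 library. Under FK506, 11 of the 20 rose and 3 fell in A53T cultures (19.7% of all genes rose there and 17.9% fell), and 15 rose and 2 fell in vector cultures (23.4% and 23.8%). Besides Gdf15 and Cdkn1a, Btg2, an antiproliferative p53 target, rose by 0.89 in A53T and 1.80 in vector cultures and had an interaction of -0.91 ± 0.10 (SE, adjusted p = 0.000217). In DMSO, Gdf15, Cdkn1a and Btg2 were higher in A53T, by 2.69, 1.14 and 0.39. Bax, the proapoptotic Bcl2 family member, was chosen after its values were seen because it went the other way, at 0.58, and it did not pass.

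Called reactive astrocyte genes had lower responses in A53T. Of 24 measured genes, 15 had a lower response in A53T (6.45% of all genes did), 0 a higher one (8.14%) and 9 did not pass. The median interaction was -1.03, and 9 of the 15 kept their call in all 11 fits that left out 1 library. In A53T cultures 17 of the 24 fell and 0 rose (17.9% and 19.7% of all genes did), with a median response of -1.38. In vector cultures 8 fell and 3 rose (23.8% and 23.4%), with a median of -0.21. S1pr3, a sphingosine 1-phosphate receptor, had 386, 288 and 349 normalized counts in A53T cultures with FK506 and 1507 and 1405 in A53T cultures with DMSO, against 1085, 1120.3 and 1031 in vector cultures with FK506 and 1185, 1205 and 1252 in vector cultures with DMSO. All 3 A53T libraries with FK506 were far below the other 8, and the vector groups differed by -0.17, not past the threshold; the interaction was -1.93 ± 0.20 (SE, adjusted p = 0.000132). Vim, the intermediate filament protein vimentin, had 4153, 3543 and 3796 normalized counts in A53T cultures with FK506 and 18377 and 16972 in A53T cultures with DMSO, against 7018, 7951 and 6711 in vector cultures with FK506 and 13126, 12744 and 14701 in vector cultures with DMSO. It fell in both arms and fell further in A53T, with an interaction of -1.30 ± 0.17 (SE, adjusted p = 0.000715). Serping1, the C1 inhibitor of complement, fell by 1.57 in A53T and 0.57 in vector cultures, with an interaction of -1.002 ± 0.13 (SE, adjusted p = 0.00048). Gfap, the astrocyte filament protein, was chosen after its values were seen: it averaged 6684 ± 583 normalized counts in A53T cultures with FK506 and 35673 ± 1026 with DMSO, against 13309.6 ± 1140.1 in vector cultures with FK506 and 44906 ± 699 with DMSO (SD, n = 3, 2, 3 and 3), and its interaction was -0.66 (adjusted p = 0.00475).

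Complement and NF-κB genes were called in the same direction, where 6.45% of all genes had a lower response. Of 9 complement genes 4 had a lower response in A53T, 2 of them in all 11 fits that left out 1 library, and 0 a higher one, with a median of -0.80; with quantile normalization 2 were lower and the median was -0.53. C1s and C2, both proteases of the classical pathway, had interactions of -0.86 and -0.80; the others were Serping1 and C3, the central component of the cascade, at -1.10. C4a, which has a near-identical copy, was not past the threshold. Of 12 NF-κB targets and chemokines, 4 were lower, 2 of them in all 11 such fits, and 0 higher, with a median of -0.83; with the axis covariate 7 were lower. Icam1, an adhesion molecule, had 172, 150.1 and 200.2 normalized counts in A53T cultures with FK506 and 301 and 261 in A53T cultures with DMSO, against 452, 539.5 and 372 in vector cultures with FK506 and 315, 304 and 282 in vector cultures with DMSO. It fell in A53T and rose in vector cultures, with an interaction of -1.27 ± 0.22 (SE, adjusted p = 0.00338). The chemokine Cxcl1, at 19.2, 20.01 and 13.8 normalized counts in A53T cultures with FK506 and 20.005 and 17.04 with DMSO, against 35.1, 50.3 and 42.5 in vector cultures with FK506 and 13.3, 11.2 and 11.7 with DMSO, rose in vector cultures, and Csf1, the macrophage growth factor, fell in A53T cultures. Their interactions were -1.80 and -1.08, and the other lower member, the NF-κB subunit gene Nfkb1, was at -0.56. Without replicate 1 of A53T with DMSO the calls of C2 and Cxcl1 were lost.

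Astrocyte markers and glutamate-handling genes were called mostly in the other direction, where 8.14% of all genes had a higher response. Of 16 astrocyte markers, 7 had a higher response in A53T, 1 (Gfap) a lower one and 8 did not pass, with a median of 0.28, and of 12 genes of glutamate uptake and the glutamine cycle, 6 were higher and 1 lower (Slc38a1, a glutamine transporter, at -0.61), with a median of 0.34. In all 11 fits that left out 1 library, 5 of those 7 markers and all 6 of the glutamate genes kept their call. Glul and Slc25a18 are members of both lists, so these counts overlap. Glul, which makes glutamine from glutamate, had 7733, 8959 and 9671 normalized counts in A53T cultures with FK506 and 6992 and 6807 in A53T cultures with DMSO, against 5602, 4979 and 5989.6 in vector cultures with FK506 and 13871, 12586 and 13354 in vector cultures with DMSO. It rose in A53T and fell in vector cultures, and its interaction was 1.61 ± 0.16 (SE, adjusted p = 9.43e-05). Slc25a18, a mitochondrial glutamate carrier, had 659, 607 and 537 normalized counts in A53T cultures with FK506 and 762 and 699.7 in A53T cultures with DMSO, against 255, 268 and 206 in vector cultures with FK506 and 983, 985 and 986 in vector cultures with DMSO and an interaction of 1.73 ± 0.17 (SE, adjusted p = 9.7e-05). It fell in vector cultures and was not called in A53T cultures. Slc38a3, a glutamine transporter, rose by 0.70 in A53T and fell by 0.45 in vector cultures, and Acsbg1, an acyl-CoA synthetase, rose by 0.20 and fell by 1.14. The summed astrocyte markers ran from 68898 to 71554 in A53T cultures with FK506 and from 103562 to 108327 with DMSO, against 57809.6 to 58681 in vector cultures with FK506 and 124203 to 126575 with DMSO. Gfap, whose levels are given above, made up most of the fall of this sum in A53T cultures and a smaller part in vector cultures. The sums therefore do not describe the other markers. The median response of the 16 markers was -0.24 in A53T and -0.83 in vector cultures. In these bulk libraries fewer cells of a type and less RNA per cell cannot be told apart.

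**Figure D3:**
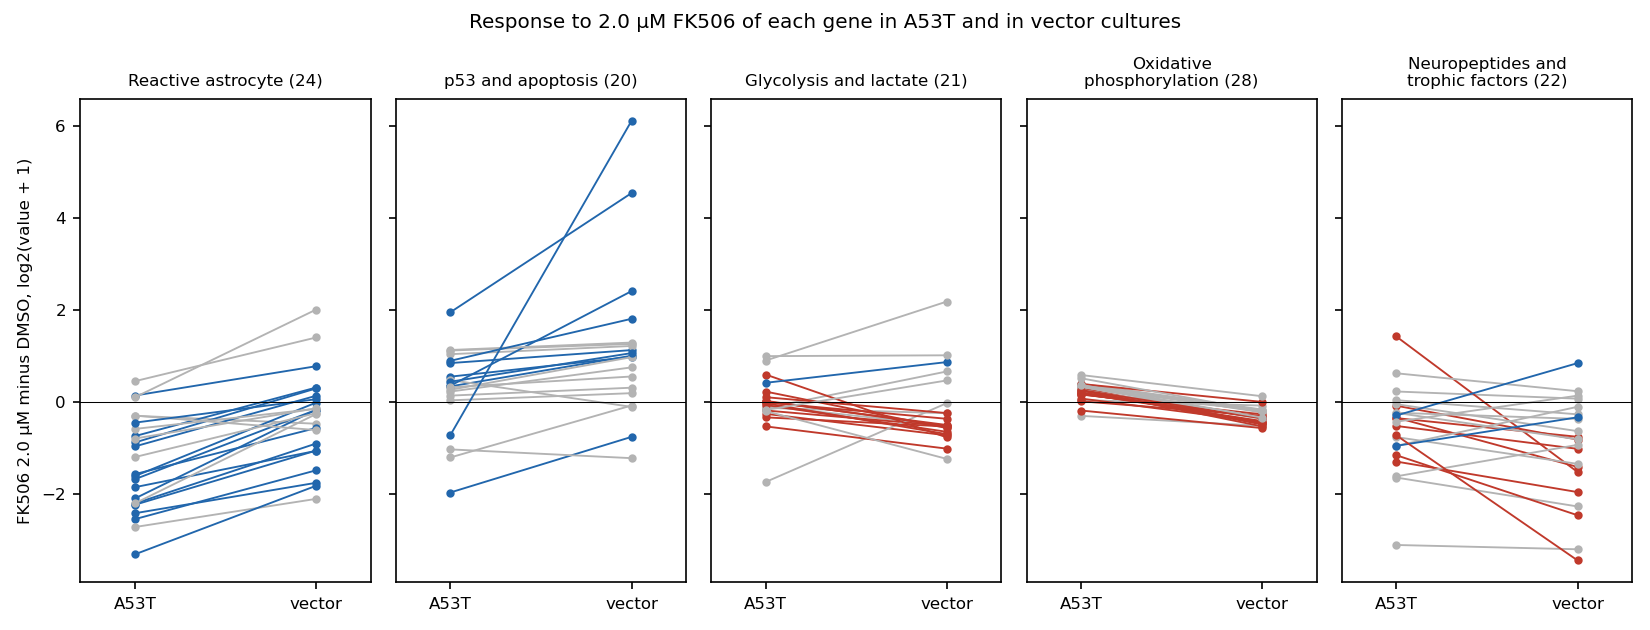
The response to FK506 of every measured gene of 5 lists, in A53T cultures (left point) and vector cultures (right point), as FK506 minus DMSO on log2(value + 1). Lines are red where the response was higher in A53T, blue where it was lower and grey where the interaction did not pass. Reactive astrocyte genes have medians of -1.38 in A53T and -0.21 in vector cultures, and oxidative phosphorylation genes 0.26 and -0.34.

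Called genes of glycogen metabolism, glycolysis and respiration mostly had higher responses in A53T, where 8.14% of all genes were called higher. Pygm, the glycogen phosphorylase that releases glucose from glycogen, had 1513, 1425 and 1567 normalized counts in A53T cultures with FK506 and 809 and 823 in A53T cultures with DMSO, against 718, 674 and 669 in vector cultures with FK506 and 911, 869 and 956 in vector cultures with DMSO. It rose in A53T and fell in vector cultures without overlap, and its interaction was 1.29 ± 0.10 (SE, adjusted p = 9.45e-06). Of 19 glycogen genes 4 were higher, 2 of them in all 11 fits that left out 1 library, 1 was lower and 14 did not pass (median 0.24), and with the axis covariate 7 were higher; Pgm1, phosphoglucomutase, was at 0.64, Gys1, glycogen synthase, at 0.36, and Ppp1r3c, a glycogen-targeting phosphatase subunit, at 0.46. Stbd1, a glycogen-binding protein, was at -1.02. Of 21 genes of glycolysis and lactate, 12 were higher and 1 lower, with a median of 0.36; 6 of the 12 kept their call in all 11 fits that left out 1 library, and without the libraries that stood apart 4 were lower. Aldoc, the aldolase of astrocytes, rose by 0.59 in A53T and fell by 0.77 in vector cultures. Pfkp and Pgk1, glycolytic kinases, had interactions of 0.47 and 0.51, and both were called down in vector cultures. The 1 lower member was the glucose transporter Slc2a1, at -0.45.

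Of 28 nuclear-encoded subunits of oxidative phosphorylation, 15 had a higher response in A53T, 0 a lower one and 13 did not pass, and all 28 were above 0, from 0.12 to 0.80 with a median of 0.57. The median response was 0.26 in A53T and -0.34 in vector cultures; in A53T cultures 3 rose and 2 fell (19.7% and 17.9% of all genes did), and in vector cultures 0 rose and 15 fell (23.4% and 23.8%). Atp5a1, an ATP synthase subunit, had 16784, 16272 and 16826 normalized counts in A53T cultures with FK506 and 16378 and 16580.3 in A53T cultures with DMSO, against 15361, 15882 and 15058 in vector cultures with FK506 and 18698, 18698 and 19741 in vector cultures with DMSO, and its interaction was 0.32 ± 0.07 (SE, adjusted p = 0.0138). Its A53T groups overlapped and its vector groups did not. Uqcrc2 of complex III was at 0.38 and the ATP synthase subunit Atp5c1 at 0.70. With the library axis score as a covariate the median was 0.27 and 26 genes were called higher, and without the libraries that stood apart 27 were. None of the 15 calls held in all 11 fits that left out 1 library: Atp5a1 lost its call without either A53T library with DMSO, and Uqcrc2 and Atp5c1 without the unnumbered one. Cytosolic ribosomal protein genes, a quality list, had 0 of 26 called; 18 were called lower with the axis covariate, and 9 higher without the libraries that stood apart. Their median was 0.24, which became -0.20 with the axis covariate and -0.0104 with quantile normalization. Their summed level ran from 423351 to 617805 in A53T cultures with FK506 and 335869 to 357105 with DMSO, against 355412 to 459439 in vector cultures with FK506 and 303057 to 341320 with DMSO.

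**Figure D4:**
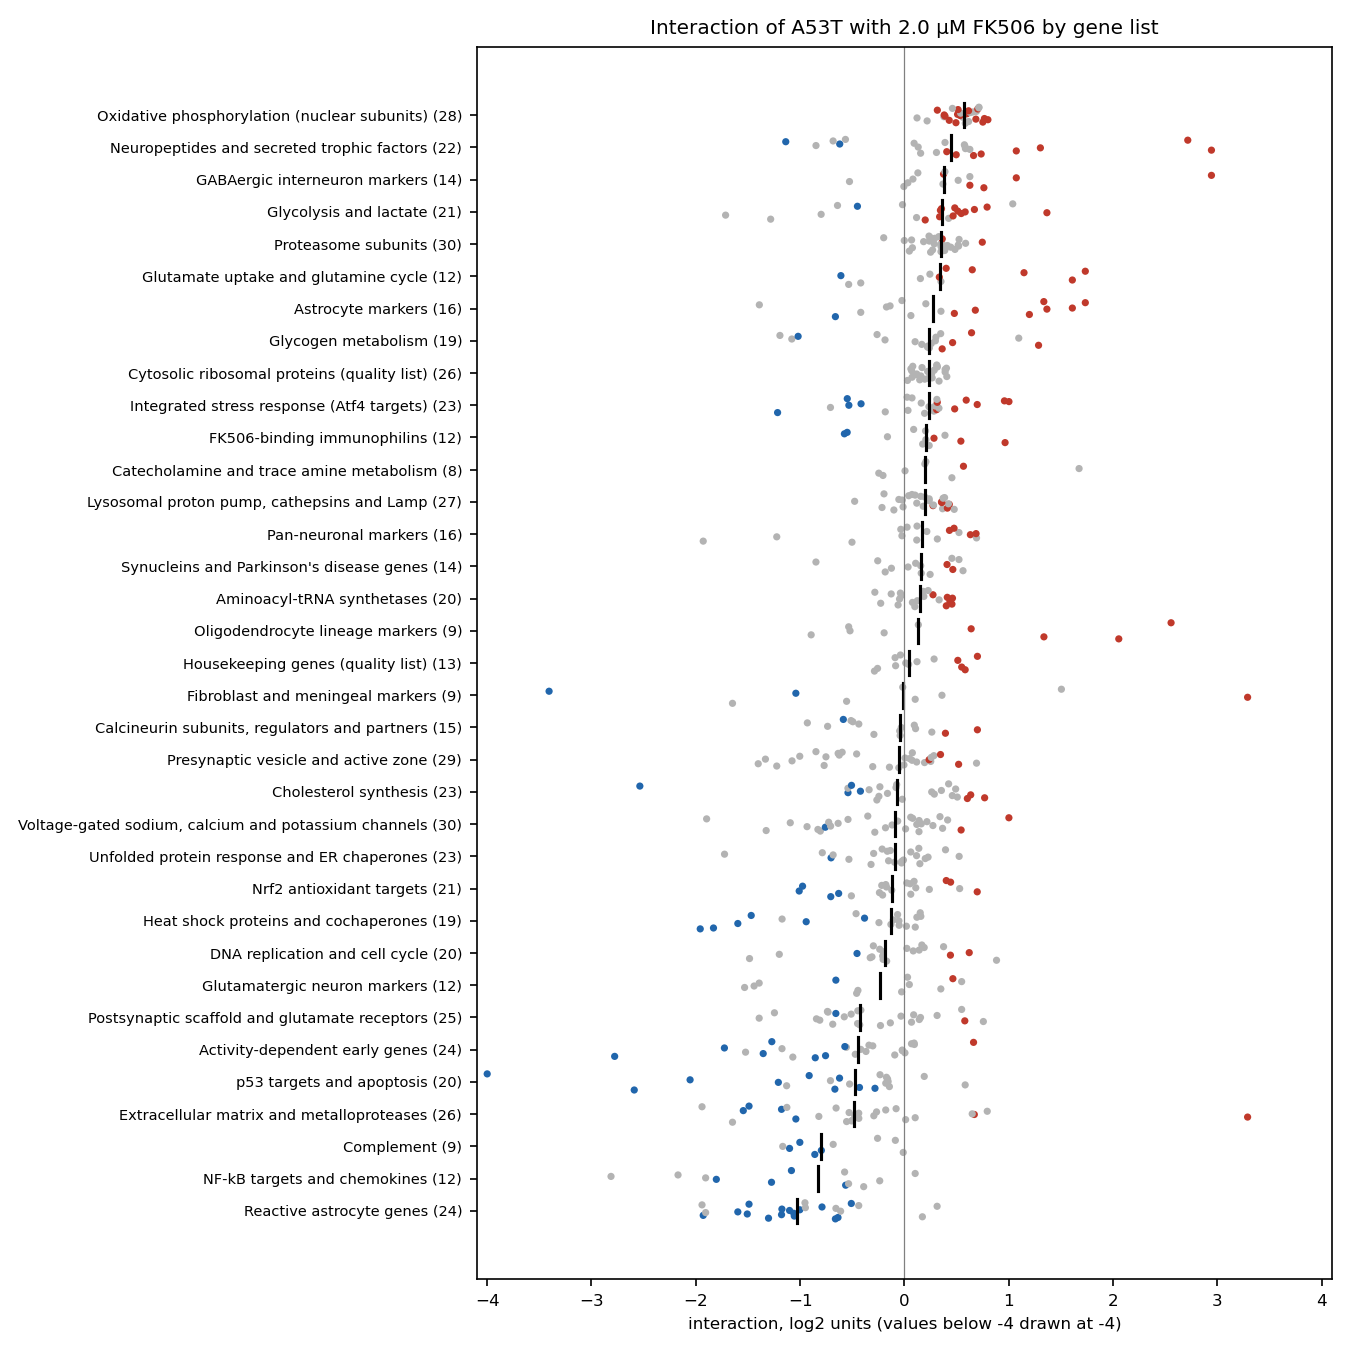
Each point is the interaction (log2) of a gene in 1 of 35 lists, with the number of measured genes in brackets. Red points had a higher and blue points a lower response in A53T, grey points did not pass, and the black bar is the list median. Medians run from -1.03 for reactive astrocyte genes to 0.57 for oxidative phosphorylation, and Gdf15, at -6.83, is drawn at the left edge.

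Of 9 oligodendrocyte lineage markers 4 had a higher response in A53T and 0 a lower one (8.14% and 6.45% of all genes did), although the median was 0.13. Of the 4, 2 kept their call in all 11 fits that left out 1 library. Only 5 of the 9 interactions were above 0, and the lowest was -0.89. Under FK506, 5 of the 9 rose and 2 fell in A53T cultures (19.7% and 17.9% of all genes did). In vector cultures 1 rose and 3 fell (23.4% and 23.8%). Olig1, a transcription factor of this lineage, had 3166, 3132 and 2937 normalized counts in A53T cultures with FK506 and 2104 and 2115 in A53T cultures with DMSO, against 860.1, 964 and 864 in vector cultures with FK506 and 2498, 2573 and 2588 in vector cultures with DMSO. It rose in A53T and fell in vector cultures without overlap in either arm, and its interaction was 2.06 ± 0.10 (SE, adjusted p = 2.66e-07). Its partner Olig2 had 676, 678 and 794 normalized counts in A53T cultures with FK506 and 382 and 353 in A53T cultures with DMSO, against 335, 299.95 and 326 in vector cultures with FK506 and 431, 419 and 401 in vector cultures with DMSO, with an interaction of 1.34 ± 0.13 (SE, adjusted p = 7.88e-05). Bcas1, a marker of early myelinating cells, was at 2.56 on low levels of 23.6, 15.01 and 23.2 in A53T cultures with FK506 and 7.22 and 4.32 with DMSO, against 5.83, 3.51 and 3.05 in vector cultures with FK506 and 5.604, 9.18 and 10.5 with DMSO; its call was lost without the unnumbered A53T library with DMSO. Sox10, Mog, Enpp6 and Gpr17 of the list were not among the labels in the table.

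Activity-dependent genes, which calcium and synaptic input induce, had 7 of 24 lower, 1 higher and 16 not past, with a median of -0.44. Of the 7, 3 kept their call in all 11 fits that left out 1 library, and 12 were lower without the libraries that stood apart as well as with the axis covariate. Under FK506, 17 of the 24 fell and 2 rose in A53T cultures (17.9% and 19.7% of all genes did), and 13 fell and 7 rose in vector cultures (23.8% and 23.4%). Jun, the AP-1 partner of Fos proteins, had 7674, 7712 and 8157 normalized counts in A53T cultures with FK506 and 5296 and 5286 in A53T cultures with DMSO, against 8056, 8209.7 and 8241 in vector cultures with FK506 and 3251, 3307 and 3230.4 in vector cultures with DMSO. It rose in both arms and rose less in A53T; with FK506 the genotypes differed by -0.06, and with DMSO A53T was higher by 0.70, so the interaction of -0.76 lay in the DMSO groups. Per1, a clock gene that cyclic AMP and calcium induce, fell by 0.58 in A53T and rose by 0.69 in vector cultures. The 1 higher member was Bdnf, the activity-dependent neurotrophin, named after its values were seen: it averaged 587 ± 136 normalized counts in A53T cultures with FK506 and 1418 ± 38.9 with DMSO, against 552 ± 9.41 in vector cultures with FK506 and 2152 ± 55.3 with DMSO (SD, n = 3, 2, 3 and 3), with an interaction of 0.66 (adjusted p = 0.0303) that passed in 4 of the 11 fits that left out 1 library.

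Neuropeptides and secreted trophic factors had 8 of 22 higher, 2 lower and a median of 0.45, and interneuron markers 5 of 14 higher, 0 lower and a median of 0.38. Cort is a member of both lists. In all 11 fits that left out 1 library, 4 of the 8 and 3 of the 5 kept their call, and without the libraries that stood apart 12 and 8 were higher; with the axis covariate 8 interneuron markers were. Scg2, secretogranin II of dense-core vesicles, had 6689, 7875 and 7556 normalized counts in A53T cultures with FK506 and 7729 and 7863 in A53T cultures with DMSO, against 6744, 6617 and 6753 in vector cultures with FK506 and 12178, 11468 and 11873 in vector cultures with DMSO. It fell in vector cultures, its A53T groups overlapped, and the interaction was 0.74 ± 0.09 (SE, adjusted p = 0.000347). Gad1, which makes GABA, had 2155, 2532 and 2305 normalized counts in A53T cultures with FK506 and 3776 and 3684 in A53T cultures with DMSO, against 2215, 1863 and 2322 in vector cultures with FK506 and 5899, 5994 and 5458 in vector cultures with DMSO. It fell in both arms and fell further in vector cultures, where the DMSO level was also higher than in A53T, and the interaction was 0.76 ± 0.12 (SE, adjusted p = 0.00241). Slc32a1, the vesicular GABA transporter, was at 0.63, and in DMSO both were lower in A53T, at -0.63 and -0.64 against vector. Nrg1, a growth factor for ErbB receptors, went the other way, with a rise of 0.84 in vector cultures and an interaction of -1.14 ± 0.17 (SE, adjusted p = 0.00159). The other lower member was the pentraxin Nptx1, at -0.62, and the other interneuron markers called were the peptide Sst at 1.07 and the calcium-binding protein Calb1 at 0.38. The summed interneuron markers ran from 16316 to 18253 in A53T cultures with FK506 and 24285 to 24533 with DMSO, against 17692 to 19237 in vector cultures with FK506 and 41552 to 44825 with DMSO, so the genotypes overlapped with FK506 and not with DMSO.

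Calls in the synaptic and neuronal lists depended on the libraries used. Presynaptic genes had 3 of 29 higher and 0 lower, postsynaptic genes 1 of 25 each way, ion channels 2 of 30 higher and 1 lower, pan-neuronal markers 4 of 16 higher and 0 lower, and glutamatergic markers 1 of 12 each way, where 14.6% of all genes were called. The lower member of the postsynaptic and the glutamatergic list was the same gene, Grin2b. Without the libraries that stood apart, the presynaptic list had 5 higher and 11 lower, the postsynaptic list 4 and 12, the channels 6 and 9, the pan-neuronal markers 7 and 3 and the glutamatergic markers 3 and 5. With the axis covariate the presynaptic list had 8 higher and 0 lower, the postsynaptic list 4 and 1, the channels 6 and 3 and the pan-neuronal markers 7 and 0, and with quantile normalization 1 presynaptic gene was higher. Those called included the vesicle proteins Rab3a at 0.35, Syt5 at 0.52 and Cplx1 at 0.24, the NMDA receptor subunit Grin2b at -0.66, the postsynaptic scaffold protein Dlgap1 at 0.58, and the neurofilament genes Nefm at 0.63 and Nefh at 0.69. Also called were the surface protein Thy1 at 0.48, the growth cone protein Gap43 at 0.43, the transcription factor Fezf2 at 0.46, the potassium channel Kcnh1 at 1.002 and the calcium channel Cacna1c at -0.76. The calls of Rab3a, Syt5 and Cacna1c held in 5 of the 11 fits that left out 1 library, that of Grin2b in 6 and those of Cplx1 and Fezf2 in 2, and Nefh lost its call without replicate 1 of A53T with DMSO. The postsynaptic median was -0.43, and 0.01 with the axis covariate.

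Stress genes outside the p53 list were divided, where 8.14% of all genes were called higher and 6.45% lower. Heat shock genes had 6 of 19 lower, 3 of them in all 11 fits that left out 1 library, and 0 higher. Bag3, a cochaperone of Hsp70, had 433, 362 and 444 normalized counts in A53T cultures with FK506 and 419 and 381 in A53T cultures with DMSO, against 725, 728 and 729.6 in vector cultures with FK506 and 255, 226 and 286 in vector cultures with DMSO. It rose in vector cultures, its A53T groups overlapped, and its interaction was -1.47 ± 0.15 (SE, adjusted p = 0.000123). Hspa1a and Hspa1b, near-identical Hsp70 genes whose reads cannot be told apart with certainty, were at -1.96 and -1.83, with A53T higher than vector in DMSO by 1.04 and 1.03. The integrated stress response list had 7 of 23 higher and 4 lower, and 7 lower with the axis covariate. Its lower members were Atf3, a stress-induced transcription factor, at -1.22, Ppp1r15a at -0.55, Cebpg at -0.53 and Slc3a2 at -0.42, and its higher ones included the serine synthesis enzymes Phgdh at 1.003 and Psph at 0.96 and the mitochondrial enzyme Shmt2 at 0.59. The other higher members were Slc7a11, Chac1, Psat1 and Asns, from 0.31 to 0.70. Aminoacyl-tRNA synthetases had 6 of 20 higher and 0 lower, with Wars at 0.46, Mars at 0.44 and Cars at 0.40; Mars and Cars lost their call without either A53T library with DMSO, and with the axis covariate 2 members were lower. The unfolded protein response list had 0 of 23 higher and 1 lower, Dnajc3, an ER cochaperone, at -0.70; it had 3 higher and 7 lower without the libraries that stood apart, 5 lower with the axis covariate and 4 lower with quantile normalization.

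The lists around the drug's targets held calls in both directions, while Fkbp1a, Ppp3ca, Ppp3cb and Ppp3r1 did not pass. Of 15 genes of calcineurin, its regulators and partners, 2 had a higher and 1 a lower response in A53T, where 14.6% of all genes were called. Without the libraries that stood apart 3 were lower, and with the axis covariate 4 were higher. Rcan2, an inhibitor of calcineurin, had 1842, 1941 and 1829 normalized counts in A53T cultures with FK506 and 2136 and 2004 in A53T cultures with DMSO, against 1559, 1602 and 1464 in vector cultures with FK506 and 2739.9, 2862 and 2709 in vector cultures with DMSO. It fell in vector cultures by 0.85 and was not called in A53T cultures, and its interaction was 0.70 ± 0.08 (SE, adjusted p = 0.000333). Ppp3cc, a catalytic subunit, had 712, 749 and 722 normalized counts in A53T cultures with FK506 and 590.5 and 665 in A53T cultures with DMSO, against 687, 641 and 703 in vector cultures with FK506 and 760.005, 766 and 769.6 in vector cultures with DMSO, rose in A53T and fell in vector cultures by small amounts, and had an interaction of 0.39 ± 0.09 (SE, adjusted p = 0.0167) that was lost without replicate 1 of A53T with DMSO. Crtc2, a CREB coactivator that calcineurin dephosphorylates, was at -0.59.

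The brain's main catalytic subunits Ppp3ca and Ppp3cb, at -0.04 ± 0.25 and -0.29 ± 0.32, did not pass, and neither did the regulatory subunit Ppp3r1 at 0.26 ± 0.11. With the axis score as a covariate Ppp3ca was called, at 0.38 (limma, adjusted p = 0.00178). That covariate was drawn from the deviations of the same libraries and lowers the spread by construction, so the call adds no evidence. Rcan1, a target of NFAT and an inhibitor of calcineurin, was at -0.04 ± 0.10, and Rcan3 at 0.11 ± 0.49. Of the NFAT genes, Nfatc2 had 11.9, 26.01 and 20.2 normalized counts in A53T cultures with FK506 and 109 and 92.5 in A53T cultures with DMSO, against 53.6, 35.1 and 46.6 in vector cultures with FK506 and 143, 120.3 and 109 in vector cultures with DMSO. It fell in both arms, and its interaction of -0.93 ± 0.43 (SE, adjusted p = 0.151) did not pass. Nfatc1 was at -0.44 ± 0.28 and Nfatc3 at -0.49 ± 0.16 (adjusted p = 0.0582). Of 12 FK506-binding immunophilins 3 were higher and 2 lower, so that 41.7% of the list was called; Fkbp1a, which encodes FKBP12, was at 0.24 ± 0.14 (SE, adjusted p = 0.225), and Fkbp1b at 0.18 ± 0.16 (SE, adjusted p = 0.45). Fkbp3 was at 0.54, Fkbp2 at 0.97 and Fkbp5 at 0.28, and the ER members Fkbp9 and Fkbp10 at -0.58 and -0.55; the calls of Fkbp3 and Fkbp10 were lost without the unnumbered A53T library with DMSO, and that of Fkbp3 also without replicate 1 of that group. Those of Fkbp2 and Fkbp5 held in 2 of the 11 fits that left out 1 library.

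Of 14 synuclein and Parkinson's disease genes 2 had a higher response in A53T and 0 a lower one. That is 14.3% of the list, near the 14.6% of all genes called in either direction. Without the libraries that stood apart 5 were higher and 2 lower, and with the axis covariate 5 were higher. Pink1, a mitochondrial kinase, had 1484, 1437 and 1484 normalized counts in A53T cultures with FK506 and 1551 and 1541 in A53T cultures with DMSO, against 1291, 1417 and 1333 in vector cultures with FK506 and 1858, 2035 and 1977 in vector cultures with DMSO. It fell in vector cultures and was not called in A53T cultures, with an interaction of 0.46 ± 0.08 (SE, adjusted p = 0.0029). Atp13a2, a lysosomal transporter, was at 0.41. Lysosomal genes had 5 of 27 higher and 0 lower, namely the proton pump subunits Atp6v1c1 at 0.27, Atp6v1h at 0.36, Atp6v1e1 at 0.43, Atp6v0d1 at 0.41 and the membrane protein Lamp1 at 0.36. Proteasome subunits had 2 of 30 higher and 0 lower, Psmd6 at 0.36 and Psmc5 at 0.75. Without the libraries that stood apart 14 lysosomal genes and 25 proteasome subunits were higher. With the axis covariate 8 lysosomal genes were higher and 2 lower, and 6 proteasome subunits higher and 3 lower; with quantile normalization 3 lysosomal genes were higher and 2 lower. None of these 7 calls held in all 11 fits that left out 1 library, and those of Atp6v1c1, Atp6v1h, Atp6v1e1, Psmd6 and Psmc5 were lost without either A53T library with DMSO.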

How the data were processed

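The deposited table holds normalized gene counts, used here as a signal per gene and library; how the authors normalized them is not given in the sources used here. Per the labels' protocols, libraries came from a stranded mRNA kit, and per the submitters' processing notes FastQC, TopHat, HTSeq and rat build rn6 were used, in versions not given in the sources used here. limma 3.58.1 with its mean-variance trend, in R 4.3.3, was fitted to log2(value + 1) with a mean for each of the 6 groups. The 3 libraries of A53T with 0.2 µM FK506, which belong to no group compared here, differed by 0.995 to 1.05 times sampling noise and entered as their mean. Pairs of other groups differed by 1.48 to 14.5 times. Sampling noise was computed as if the normalized values were raw counts, which is an assumption. This left 15 samples and 9 residual degrees of freedom, with the lone mean assumed to vary like the other groups. P-values were adjusted by Benjamini-Hochberg over all 11247 genes, with a threshold of 0.05. The minimum mean of 1 removed 0 genes. Fold changes on this scale understate the change of low genes. The fit was tested on simulated data with independent noise for each gene. That test does not cover variation shared between genes, such as the axis within groups.

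The A53T library with DMSO whose column number differs from its title entered as an unnumbered replicate. Members and gene lists were chosen with earlier results of these data known. Some genes belong to more than 1 list, among them Aldoc, Fn1, Grin2b, Lum and Serping1, so the counts of lists overlap. The rule named the 10 lowest and 10 highest interactions among called genes whose mean reached 20 and whose sign held when single libraries were left out, the 8 largest with opposite calls in the arms, the study's genes, and up to 3 called members of each list by smallest p; members outside it were named after their values were seen. Some genes that the rule chose enter the counts and are not reported here by name. Labels matching no gene symbol were tested and not named, and symbols were checked against RefSeq (GRCr8), where 11087 of 11247 labels matched. Alternatives were other pseudocounts, filters, normalizations, sets of samples, replicate blocks and each library left out; added after seeing the data was the axis score as a covariate. The axis is the first principal component of the deviations from group means.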

Additional observations from a re-analysis of the deposited data

Results flagged for a closer look

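The interaction test itself, which asks whether A53T and vector cultures differed in their response to FK506, singled out 916 genes with a higher and 725 with a lower response in A53T. Among the named genes the response was lower in A53T for the following, as the interaction on the log2 scale. It was -6.83 for Gdf15, -3.41 for Tagln, -3.02 for Zbtb20, -2.88 for Ncoa2, -2.78 for Fosl2, -2.78 for Fosl1, -2.68 for Tgfbr2, -2.66 for Klf13, -2.59 for Cdkn1a, -2.54 for Exnef, -1.96 for Hspa1a, -1.93 for S1pr3, -1.83 for Hspa1b and -1.80 for Cxcl1. Next came -1.47 for Bag3, -1.30 for Vim, -1.27 for Icam1, -1.27 for Per1, -1.22 for Atf3, -1.14 for Nrg1, -1.08 for Csf1, -1.04 for Fn1, -1.02 for Stbd1, -1.01 for Osgin1, -1.002 for Serping1, -0.91 for Btg2, -0.86 for C1s and -0.80 for C2. The smaller ones were -0.76 for Cacna1c, -0.76 for Jun, -0.72 for Cd68, -0.70 for Dnajc3, -0.66 for Grin2b, -0.63 for Srxn1, -0.59 for Crtc2, -0.58 for Fkbp9, -0.55 for Fkbp10, -0.54 for Cyp51 and -0.45 for Ccnd3.

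The response was higher in A53T for the other genes named. It was 3.29 for Lum, 2.94 for Cort, 2.72 for Trim54, 2.72 for Crhbp, 2.69 for Timp4, 2.56 for Bcas1, 2.52 for Slco1c1, 2.52 for Agt, 2.39 for Apln, 2.35 for Btbd17, 2.12 for Fam20a, 2.06 for Olig1, 1.73 for Slc25a18 and 1.61 for Glul. Next came 1.37 for Aldoc, 1.34 for Olig2, 1.34 for Acsbg1, 1.29 for Pygm, 1.15 for Slc38a3, 1.003 for Phgdh, 1.002 for Kcnh1, 0.76 for Gad1, 0.75 for Psmc5, 0.74 for Scg2, 0.70 for Atp5c1, 0.70 for Rcan2, 0.69 for Nefh and 0.67 for Bcan. Further values were 0.64 for Pgm1, 0.64 for Fdft1, 0.63 for Nefm, 0.63 for Slc32a1, 0.62 for Ccne1, 0.59 for Shmt2, 0.58 for Gapdh, 0.58 for Dlgap1, 0.57 for Slc29a4, 0.54 for Fkbp3, 0.52 for Syt5, 0.51 for Pgk1, 0.48 for Thy1 and 0.47 for Pfkp. Smaller ones were 0.46 for Fezf2, 0.46 for Pink1, 0.46 for Wars, 0.44 for Ccnd1, 0.44 for Mars, 0.43 for Atp6v1e1, 0.41 for Atp13a2, 0.40 for Cars, 0.40 for Me1, 0.39 for Ppp3cc, 0.38 for Uqcrc2, 0.36 for Psmd6, 0.36 for Atp6v1h and 0.35 for Rab3a. The remaining values were 0.32 for Atp5a1, 0.27 for Atp6v1c1 and 0.24 for Cplx1.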

How the results depend on the processing

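No called gene changed sign under any alternative. Against 916 higher and 725 lower calls, there were 917 and 727 with a pseudocount of 0.25, 930 and 730 with 4, 937 and 757 with quantile normalization, 812 and 751 with median-ratio size factors, and 1265 and 1101 with 17 separate libraries; of the 1641 calls, 1634, 1633, 1385, 1532 and 1635 in that order were among them. Leaving out 1 library gave 334 to 1365 higher and 298 to 1250 lower calls, the fewest without the unnumbered A53T library with DMSO (334 and 298) or replicate 1 of that group (350 and 299), and the most without replicate 3 of A53T with FK506. Without the 3 libraries that stood apart there were 2169 and 2085, and with the axis score as a covariate 1446 and 1467. Both settings lower the spread within groups by construction, and other causes were not tested. In the arms, the 4233 genes called in A53T cultures became 1837 to 4880 when 1 library was left out, with 1837 and 2101 without the unnumbered library and replicate 1 of A53T with DMSO. Among libraries of different groups with the same replicate number, 4 of 12 pairs deviated together by title numbers and 5 of 15 by column numbers. Deviating together meant an r over 0.1, and r ran from -0.44 to 0.49. No common pairing was seen, but with so few libraries in a group the check cannot exclude one. With a replicate block by title numbers there were 207 higher and 181 lower calls and 1599 genes called in A53T cultures. The unnumbered library has no title number, so that fit left A53T with DMSO 1 library. Its counts therefore cannot separate the block from the loss of the library, which alone gave 334 and 298. The block by column numbers, which kept the unnumbered library, gave 682 and 553. Of the named genes, 30 lost their call without replicate 1 of A53T with DMSO and 29 without the unnumbered library. The list medians that changed sign were, with quantile normalization, -0.0104 for ribosomal proteins, 0.0269 for DNA replication, -0.154 for housekeeping genes and 0.168 for fibroblast markers, with a minimum mean of 20, -0.0301 for oligodendrocyte markers, and with the axis covariate, 0.00621 for postsynaptic genes, 0.0250 for glutamatergic markers, -0.195 for ribosomal proteins, 0.0289 for DNA replication, 0.273 for endothelial markers, 0.202 for fibroblast markers, 0.105 for calcineurin genes, 0.0692 for presynaptic genes, 0.13 for ion channels and 0.065 for cholesterol synthesis. Without the libraries that stood apart it was 0.116 for fibroblast markers, and leaving out 1 library gave -0.122 to 0.118 for fibroblast markers, -0.0304 to 0.157 for housekeeping genes and -0.261 to 0.000426 for ion channels. Ppp3ca had an interaction of 0.38 with the axis covariate, against -0.04 without it. The number of libraries, 2 in the smallest group, limits the precision.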

Other observations

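Matrix and fibroblast genes held single members at both ends, where 8.14% of all genes were called higher and 6.45% lower. Of 26 matrix and metalloprotease genes 2 had a higher and 4 a lower response in A53T, with a median of -0.49, and without the libraries that stood apart 11 of the matrix genes were lower. Of 9 fibroblast and meningeal markers 1 was higher and 2 lower. Lum, which encodes the proteoglycan lumican, had 2.84, 6.003 and 4.295 normalized counts in A53T cultures with FK506 and 2.63 and 1.13 in A53T cultures with DMSO, against 3.87, 4.63 and 5.07 in vector cultures with FK506 and 25.1, 26.5 and 31.9 in vector cultures with DMSO, with an interaction of 3.29 ± 0.47 (SE, adjusted p = 0.00117). Vector cultures with DMSO were alone in holding more than 20 normalized counts, so the difference lay in the DMSO groups, where A53T minus vector was -3.37. The other lower matrix genes were Mmp12 at -1.54, Thbs4 at -1.49 and Timp1 at -1.18. Fn1, fibronectin, fell by 1.20 in A53T cultures with no call in vector cultures, while Bcan, the brain proteoglycan brevican, rose by 0.46 in A53T and fell by 0.21 in vector cultures. The summed fibroblast markers ran from 1549.8 to 1953 in A53T cultures with FK506 and 2782 to 2889.6 with DMSO, against 6438 to 7838 in vector cultures with FK506 and 2239 to 2544 with DMSO, and Tagln made up most of the sum in vector cultures with FK506.

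Cholesterol synthesis genes had 3 of 23 higher and 4 lower, and 8 higher without the libraries that stood apart or 6 with the axis covariate, with Fdft1 at 0.64, Cyp51 at -0.54, Mvk at 0.60, Pmvk at 0.77 and Msmo1 at -0.42, all enzymes of the pathway, and the regulator Insig1 at -0.51. Nrf2 antioxidant targets had 3 of 21 higher and 4 lower, and 5 higher without the libraries that stood apart or 9 lower with the axis covariate, with the malic enzyme Me1 at 0.40, the sulfiredoxin Srxn1 at -0.63, Osgin1 at -1.01, the cystine transporter Slc7a11 at 0.70, Tkt at 0.44, Nqo1 at -0.71 and Ftl1 at -0.98. DNA replication and cell cycle genes had 2 of 20 higher and 1 lower, 15% of the list where 14.6% of all genes were called. They were the cyclins Ccne1 at 0.62, Ccnd1 at 0.44 and Ccnd3 at -0.45. Their calls held in 2 to 4 of the 11 fits that left out 1 library. In that list 5 genes were lower without the libraries that stood apart and 6 with the axis covariate. Catecholamine and trace amine genes had 1 of 8 higher, 12.5% of the list, the monoamine transporter Slc29a4 at 0.57. Housekeeping genes, a quality list, had 4 of 13 higher and 0 lower (2 higher with quantile normalization and 3 lower with the axis covariate). Among them were Gapdh at 0.58, Ppia at 0.55 and Pgk1, and both Gapdh and Pgk1 also stand among the glycolysis genes. The call of Gapdh held in 4 of the 11 fits that left out 1 library.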
